A study of Mus musculus with 4 samples.

Results

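The neutrophil genes S100a8, S100a9, Retnlg, Csf3r, Ly6g, Camp, Ngp, Ltf, Cd177 and Il1r2 were followed in injured mouse abdominal aorta. These 10 were found by name among the probes of the array that are not controls, which gave 11 probes for 10 of 37074 gene names. RNA of 4 aorta samples was measured on 4 one-colour Agilent arrays, all from 12-week-old males whose vessel had been injured with the salt CaPO4 and which were sampled 4 weeks later. W2 and W3 are labelled wild type, and K4 and K5 are labelled SR-A1-/-, the knockout of Msr1, a scavenger receptor of macrophages. The labels name neither the allele nor the strain and do not say whether an array holds 1 animal. All 4 arrays share the injury, and uninjured aorta was not analysed here. With 2 arrays a group, the smallest two-sided exact permutation p is 0.333, and p-values below measure only the spread between these samples.

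Neutrophils are short-lived granulocytes that are among the first cells to enter injured tissue. They develop in the bone marrow, where granule proteins such as Camp, Ngp and Ltf are made by immature cells. S100a8, S100a9, Retnlg, Csf3r and Il1r2 remain as transcripts in mature cells. In bulk tissue, fewer neutrophils and less RNA per neutrophil cannot be told apart.

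All levels below are log2 of the processed signal relative to the array's own 75th percentile, and all differences are K4 and K5 minus W2 and W3, ± the limma standard error. The 75th percentile was 132 and 133 on W2 and K5 and 220 and 245 on W3 and K4, so each signal level holds 1 array of each label. Msr1, read first as a check, did not follow the labels. Both of its probes were well above background on W3, K4 and K5 and not on W2. They read -6.4, -2.12, -1.5 and -1.38, and -5.3, -2.1, -1.26 and -2.09, on W2, W3, K4 and K5. For both probes the mean of K4 and K5 was above that of W2 and W3, opposite to the label. With W2 raised to its lowest signal called above background, the differences were 1.75 and 1.5. Because the allele is not named, signal from these probes cannot decide whether the labels are right. K4 and K5 are therefore called the arrays labelled knockout throughout. Smooth muscle markers fitted the labelled tissue, with all 6 tested and Acta2 between 8.57 and 9.47. The arrays stood apart in other tissues: the white adipocyte gene Cfd read 7.76, 8.11 and 7.89 on W2, W3 and K4 and 0.45 on K5, and the brown fat gene Ucp1 read 7.09 and 5.31 on W3 and K4 and was near background on the others. Lep, also a white adipocyte gene, was highest on K5, at -0.63. Skeletal muscle markers had summed signals of 790 and 251 on W2 and W3 and 99.5 and 177 on K4 and K5, with a median difference of -1.95. Of the 6 tested, 3 were at least 2-fold lower without overlap of the groups, and 1, Myh1, was higher. The part of muscle in the differences below was not tested.

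Of the 10 neutrophil genes, 6 were bright enough to be tested, with a probe called well above background on 2 arrays or more. None passed an adjusted p of 0.05 in limma, where 0 of 22497 genes did (0% of all genes), and an unadjusted p under 0.05 was reached by 1416 genes (6.29%), with Ly6g as the 1 member among them. Ly6g was also the member with a difference of at least 2-fold and groups that did not overlap, higher on the arrays labelled knockout. That holds for 3.96% of all genes in this direction and 2.44% in the other, where no member was found. The median difference of the 6 genes was -0.17, beside -0.0057 over all genes tested.

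The probes of 3 members share bases with probes of other transcripts, and those of Ly6g and Csf3r, both tested, are shown because their values are read through them. Of the 11 probes, 8 have no run of 16 bases in common with a probe of another gene name on the same strand. The probe of Ngp shares such a run with 1 other probe, Ly6g with 1 and Csf3r with 7. Capitals mark the run shared by Ly6g and the transcript ENSMUST00000089689, both 5′ to 3′ as on the array, each of 60 bases with 28 in common:
Ly6g: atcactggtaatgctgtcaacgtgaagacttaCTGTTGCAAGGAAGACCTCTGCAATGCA
ENSMUST00000089689: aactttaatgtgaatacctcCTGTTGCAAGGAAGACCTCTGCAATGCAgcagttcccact

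For Csf3r, windows of 30 bases are shown, with capitals for the run of 18 bases shared with the bile acid transporter gene Slc10a1 and, in the lower pair, of 20 bases shared with Gm1305. The runs belong to the B1 repeat, a short interspersed element present at many places in the mouse genome:
Csf3r against Slc10a1: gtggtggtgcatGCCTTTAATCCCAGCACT
Slc10a1: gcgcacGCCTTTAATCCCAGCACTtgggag
Csf3r against Gm1305: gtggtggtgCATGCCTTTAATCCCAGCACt
Gm1305: gatggcaCATGCCTTTAATCCCAGCACgtg

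S100a8 and S100a9, which form the calcium-binding heterodimer calprotectin and are abundant in neutrophil cytosol, were high on 1 array of the wild type group and low on the other. S100a8 (NM_013650, chromosome 3, 90473778 to 90473837 on mm9) read -4.48 on W2, where it was not well above background, and -0.38 on W3, -2.99 on K4 and -3.16 on K5. W3 was 6.1-fold above the next array, and both arrays labelled knockout lay between those labelled wild type. S100a9 (NM_001281852, chromosome 3, 90496573 to 90496632) read -2.83, 1.63, -1.33 and -2.5 on W2, W3, K4 and K5, well above background on every array. W3 was 7.8-fold above the next array, and the groups overlapped here too.

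The differences were -0.64 ± 1.33 for S100a8 and -1.31 ± 1.49 for S100a9, each with an adjusted p of 1 in limma. Their 95% intervals, -4.08 to 2.80 and -5.17 to 2.54, take in large changes in both directions. The direction depended on the array labelled wild type that was kept. Without W2, the differences were -2.69 and -3.55, with adjusted p of 0.0254 and 0.0175 in limma; without W3, they were 1.41 and 0.92, with 0.268 and 0.961, S100a8 against a value of W2 not well above background. In those fits the lone wild type array borrows its spread from the arrays labelled knockout, and adjusted p under 0.05 in the lower direction held for 0.333% of all genes without W2. Between the arrays of high signal, K4 minus W3, S100a8 differed by -2.60 and S100a9 by -2.96, and between those of low signal, K5 minus W2, by at least 1.10 and by 0.33; the bound is against the lowest signal called above background on W2.

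**Figure D1:**
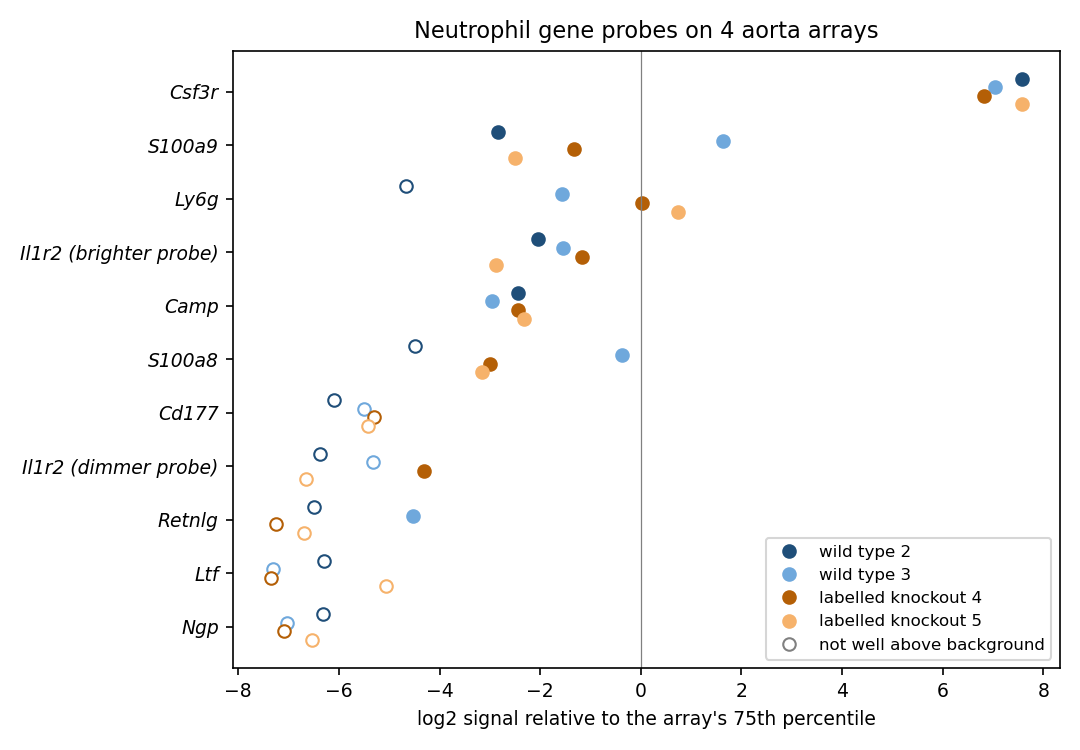
Log2 signal relative to the array's 75th percentile (x axis) for the 11 probes of the 10 neutrophil genes (y axis), 1 point an array; open points are not well above background. S100a8 and S100a9 stand highest on W3 (-0.38 and 1.63), Ly6g on K4 and K5 (0.03 and 0.73), and every point of Ngp, Ltf and Cd177 is open.

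Retnlg, a resistin-like protein made by neutrophils, had the same array at the top. It read -6.49, -4.52, -7.24 and -6.69 on W2, W3, K4 and K5 (NM_181596, chromosome 16, 48874468 to 48874527) and was well above background on W3 alone. It was therefore not tested, and no fold is given because both groups lie at or near background.

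Ly6g, the surface antigen by which mouse neutrophils are commonly stained, ran the other way. Its probe (ENSMUST00000023246, chromosome 15, 74989023 to 74989082) read -4.67 on W2, where it was not well above background, -1.56 on W3, 0.03 on K4 and 0.73 on K5. Both arrays labelled knockout were above both labelled wild type, and the latter were 3.11 apart. The difference was 3.5 ± 1.05 (11.3-fold, 95% interval 0.79 to 6.20), with an adjusted p of 0.647 in limma. With W2 raised to its lowest signal called above background, it was 3.29.

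Every setting in which Ly6g was tested kept it higher on the arrays labelled knockout, but its size moved. With normexp background correction the difference was 1.59, and over the alternatives with all 4 arrays the adjusted p lay between 0.185 and 0.711. Without W3 it was 5.05, with an adjusted p of 0.00165 in limma, in a fit that called 1.06% of all genes higher; the remaining array labelled wild type was then not above background, and against its lowest signal called above background the arrays labelled knockout were at least 24.9-fold higher. Without W2 it was 1.94, with an adjusted p of 0.136. The difference was 1.60 between the arrays of high signal and at least 4.99 between those of low signal, against the same limit on W2, upward in both.

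The transcript that shares 28 bases with the Ly6g probe did not follow it. ENSMUST00000089689 read 2.5, -0.01, 1.19 and 1.78 on W2, W3, K4 and K5, where Ly6g was lowest on W2 and this transcript highest. Its groups overlapped, with a difference of 0.24.

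Markers of macrophages moved in the same direction as Ly6g. Of the 9 tested macrophage markers, 8 met the same rule of 2-fold without overlap, toward the arrays labelled knockout, and the list's median was 1.66. Their summed signal, in multiples of the array's 75th percentile, was 29.7 and 55.7 on W2 and W3 and 116 and 82.4 on K4 and K5. None of the neutrophil members is on that list, and the part of this shift in the value of Ly6g was not tested. Of 9 tested erythroid genes, a sign of blood in the tissue, 4 were higher by the same rule, with a median of 0.89 and summed signals of 523 and 314 on W2 and W3 and 460 and 836 on K4 and K5; their part was not tested either. Among eosinophil markers, Ear1 and Prg2 of 5 tested were higher in the same way, Ear1 by 2.94 ± 0.37. Ear6, Il5ra and Siglecf did not meet the rule, at -0.39 ± 0.35, 0.04 ± 0.69 and 0.79 ± 0.80. Prg2 was not well above background on W2 and W3. Its mean on K4 and K5 was at least 2.7-fold higher than the lowest signals called above background there. Epx, the eosinophil peroxidase gene, was not well above background on any array.

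**Figure D2:**
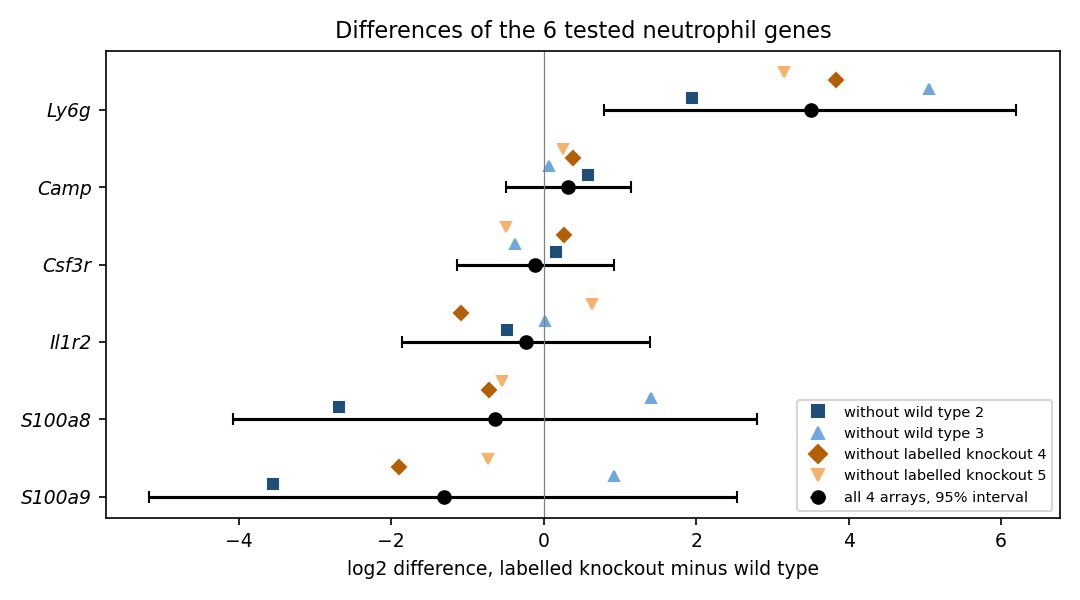
Log2 differences, labelled knockout minus wild type (x axis), of the 6 tested neutrophil genes (y axis): black points use all 4 arrays, with 95% intervals, and coloured points leave out 1 array each. S100a8 runs from -2.69 to 1.41 and S100a9 from -3.55 to 0.92 by the array left out, while Ly6g stays between 1.94 and 5.05.

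Of the granule protein genes, Camp was well above background on all 4 arrays and Ltf, Ngp and Cd177 on none. Camp, which encodes the antimicrobial cathelicidin, read -2.45, -2.96, -2.45 and -2.32 on W2, W3, K4 and K5 (NM_009921, chromosome 9, 109749911 to 109749970). The 4 values lay within 0.64, the groups touched, and the difference was 0.32 ± 0.32 with an adjusted p of 1 in limma. Its 95% interval of -0.50 to 1.14 was the narrowest of the 6 members tested.

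Ltf, the iron-binding lactotransferrin of specific granules, read -6.30, -7.31, -7.35 and -5.06 (NM_008522, chromosome 9, 110942873 to 110942932). Ngp, the neutrophilic granule protein, read -6.32, -7.03, -7.10 and -6.53 (NM_008694, chromosome 9, 110324266 to 110324814). Cd177, a surface protein that binds PECAM1 and is held partly in granules, read -6.09, -5.50, -5.31 and -5.42 (NM_026862, chromosome 7, 25531261 to 25535362). All 3 were not well above background on any of the 4 arrays and gave no test and no fold.

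The receptors of the set showed small differences within their spread. Il1r2, the decoy receptor that binds interleukin 1 without signalling, has 2 probes. The brighter (NM_010555, chromosome 1, 40182006 to 40182066) read -2.04, -1.54, -1.16 and -2.88 on W2, W3, K4 and K5, highest and lowest on the arrays labelled knockout. The difference was -0.23 ± 0.63, with an adjusted p of 1 in limma and a 95% interval of -1.86 to 1.40.

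The dimmer probe of Il1r2 (40168971 to 40171918) read -6.37, -5.32, -4.30 and -6.66 and was well above background on K4 alone. Leaving out 1 array moved the difference of the brighter probe between -1.09 and 0.63, so its direction depends on single arrays.

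Csf3r, the receptor of granulocyte colony-stimulating factor, read 7.58, 7.04, 6.82 and 7.58 on W2, W3, K4 and K5 (NM_007782, chromosome 4, 125721478 to 125721537). W2 and K5, the arrays of low signal, were level with each other and above W3 and K4. The difference was -0.11 ± 0.40, with an adjusted p of 1 in limma and a 95% interval of -1.14 to 0.92. Between arrays of like signal it was 0 for K5 minus W2 and -0.22 for K4 minus W3.

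Most probes that share bases with Csf3r varied with it from array to array. Slc10a1, the bile acid transporter of liver, read 9.64, 8.85, 8.65 and 9.45, and Gm1305 read 5.04, 4.6, 4.29 and 4.92. The cluster TC1653005, with 30 bases in common, read 8.24, 7.48, 7.28 and 8.04. All 3 were higher on W2 and K5 than on W3 and K4, as Csf3r was. Of the other 4, Cript and Cpd ordered the arrays in the same 2 pairs and 6430531B16Rik and Gm2347 did not. Furin, Mtif2 and Mmp14, whose probes are not among these 7, also read higher on W2 and K5. They were picked for profiles like that of Csf3r, so their order was set by that choice. It is no test of shared bases. Over all tested genes, W2 with K5 and W3 with K4 were the closest pairs, with median absolute differences of 0.277 and 0.297. Before scaling, the Csf3r intensity was 25300, 29000, 27700 and 25300 on W2, W3, K4 and K5. How much of the Csf3r signal comes from its own transcript was not tested.

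**Figure D3:**
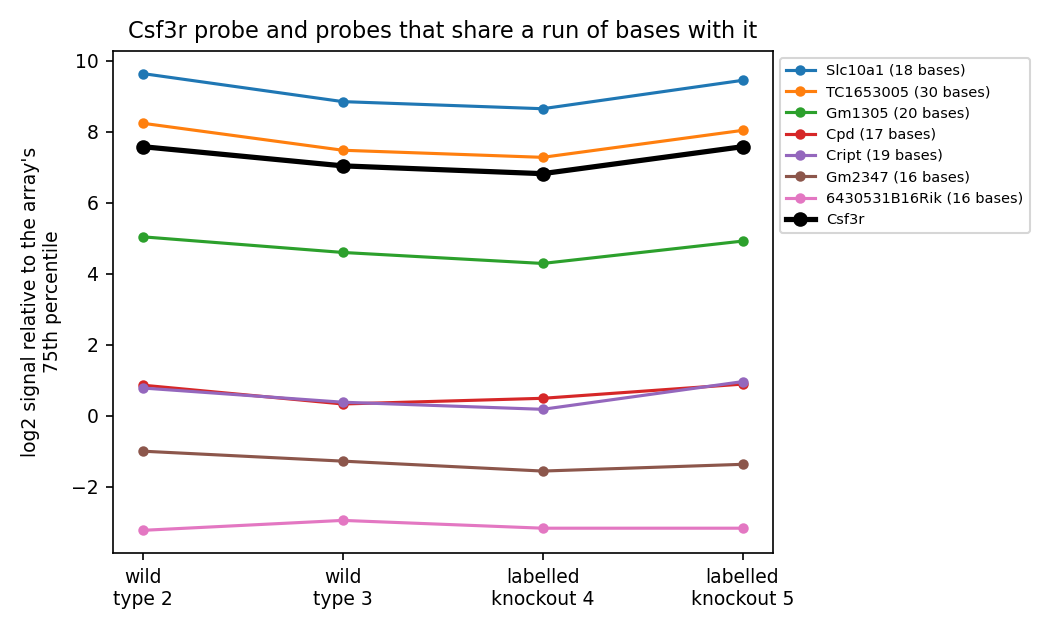
Log2 signal relative to the array's 75th percentile (y axis) on the 4 arrays (x axis) for the Csf3r probe, in black, and the 7 probes of other transcripts that share a run of at least 16 bases with it; the length of the run is in brackets. Csf3r, Slc10a1, TC1653005 and Gm1305 are each higher on W2 and K5 than on W3 and K4.

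Profiles most like those of 2 members were found by distance between centred values over the 4 arrays, as a description. For S100a8, the nearest were Cyr61, an early-response matrix protein gene, at 0.17, ENSMUST00000119884 at 0.43, NAP058885-1 at 0.48, NAP111477-1 at 0.49 and Dnaja1, a heat shock co-chaperone gene, at 0.50. Cyr61 read 3.15, 7.02, 4.55 and 4.44 on W2, W3, K4 and K5, highest on W3 as S100a8 was. For Csf3r they were Ddx23, Mtif2, Mustn1, Furin and Mmp14, at 0.03 to 0.05. Furin read 9.03, 8.49, 8.26 and 8.97, with W2 and K5 above W3 and K4.

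Few genes stood as far above the other arrays on W3 as S100a8 and S100a9. These 2 of the 6 members were at least 2-fold higher on W3 than on any other array, as were 1.62% of all genes. In the 9 related lists, which hold 83 tested genes, this was found for 8 genes, or 9.64%, chosen here after their values were seen. They are the chemokines Cxcl1 and Ppbp, the cytokines Il6 and Il1b, the antagonist Il1rn, the C-type lectin receptors Clec4d and Clec4e, and Cebpb, a transcription factor of myeloid cells. Cxcl1, which attracts neutrophils through CXCR2, read -2.46, 2.79, 0.32 and 0.55 on W2, W3, K4 and K5. Il1b read -6.42, -1.62, -4.76 and -3.01, and Clec4e read -6.56, -0.50, -4.82 and -4.67. In all 3, W3 was highest. Il1b and Clec4e were not well above background on W2, nor was Clec4e on K5.

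Ligands of CXCR2 that were not tested were seen on single arrays. Cxcl3 and Cxcl5 were well above background on W3 alone, at -2.65 and -2.02, and Cxcl2 on K4 alone, at -4.79. Csf3, the growth factor that binds Csf3r, was not well above background on any array. Brown fat genes were also highest on W3: 3 of 4 stood 2-fold above every other array, and the summed signal of the list was 21.8, 342, 109 and 3.96 on W2, W3, K4 and K5. The part of this tissue in the W3 values was not tested.

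**Figure D4:**
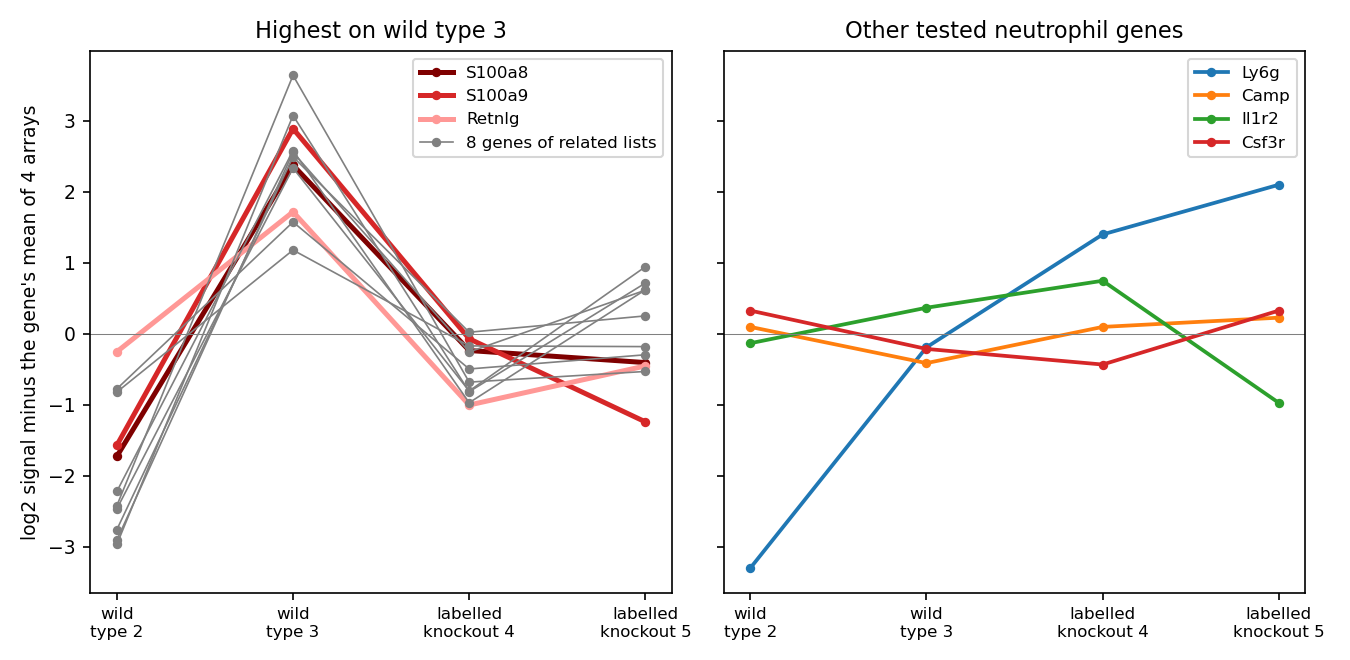
Log2 signal minus the gene's own mean (y axis) on the 4 arrays (x axis). On the left, S100a8, S100a9 and Retnlg in red and, in grey, 8 tested genes of the related lists all peak on W3; on the right, Ly6g is highest on K4 and K5, and Camp, Il1r2 and Csf3r span at most 1.72.

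Of the related lists, none had a gene past an adjusted p of 0.05 in limma. An unadjusted p under 0.05 in that fit was reached by 11 of their 83 genes, beside 6.29% of all genes. The rule of 2-fold without overlap was met upward by 10 genes (12%) and downward by 3 (3.61%), beside 3.96% and 2.44% of all genes. These counts and shares use the fitted values. They take in Ctsg upward and Chil3 downward, each not well above background in the group where it was low. The median difference was 0.37. Among proteins of primary granules 4 of 7 were tested, and the protease gene Ctsg read -6.54, -5.57, -2.54 and -4.41, with W2 and W3 not well above background. It passed the filter through the arrays labelled knockout, and the fitted difference was 2.58 ± 0.72. Against the lowest signals called above background on W2 and W3, the mean of K4 and K5 was at least 2.22-fold higher. That bound rests on K4: it was 2.45 on the log2 scale for K4 against W3 and -0.15 for K5 against W2. Serpinb1a, an inhibitor of neutrophil proteases, differed by 0.49 ± 0.36 and the peroxidase gene Mpo, not well above background on W2, by 0.11 ± 0.44. Ctsg was the gene of that list that met the 2-fold rule, and mast cells express it too. The mast cell list had 4 of 7 genes tested and 1 of them higher in the same way. Its summed signals were 3.11 and 1.54 on W2 and W3 and 7.04 and 2.41 on K4 and K5. The part of mast cells in the value of Ctsg was not tested.

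Other proteins of specific and gelatinase granules gave 12 tested genes of 14, none higher by that rule and 1 lower. That gene was Chil3, a chitinase-like lectin, with a fitted difference of -1.90 ± 0.47. It was not well above background on K4 and K5 and passed the filter through the wild type arrays; against the lowest signals called above background it was at least 1.25-fold lower, short of 2-fold. Adam8, a metalloprotease of granulocytes and macrophages, differed by 1.78 ± 1.22 and Hp, haptoglobin, by -1.28 ± 1.36, both with groups that overlapped. Hp read 3.30, 5.28, 4.86 and 1.16, lowest on K5, where most white adipocyte genes were low too. The summed signal of that list was 295 and 412 on W2 and W3 and 381 and 2.45 on K4 and K5. Lep, of the same list, went the other way, at -1.10, -1.64, -1.02 and -0.63 on W2, W3, K4 and K5. The part of white fat in the value of Hp was not tested.

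Among mature neutrophil receptors and enzymes, 19 of 22 were tested, 4 higher and 2 lower by the 2-fold rule. Ltb4r1, the receptor of the chemoattractant leukotriene B4, was higher by 1.38 ± 0.44, with Alox5 and Alox5ap of leukotriene synthesis at 1.18 ± 0.32 and 1.32 ± 0.49 and the selectin ligand Selplg at 1.14 ± 0.65. Selplg read -1.30, 0.54, 0.93 and 0.58 on W2, W3, K4 and K5, so W3 lay just below K5. Hdc, which makes histamine, was lower by 1.61 ± 0.28 on the log2 scale, and Padi4, which citrullinates histones, by 1.05 ± 0.43, with K5 not well above background. Fcgr4, an IgG Fc receptor, differed by 1.51 ± 1.09 with groups that overlapped. Of the CXC chemokine receptors of neutrophils, Cxcr2 read -6.59, -4.58, -7.18 and -4.29, with W2 and K4 not well above background, and Cxcr1 was well above background on W3 alone.

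The interleukin 1 list, to which Il1r2 belongs by function, had 8 of 10 genes tested and 3 higher by the 2-fold rule. They were the receptors Il18r1 at 2.0 ± 0.39 and Il1rl1 at 1.25 ± 0.41 and the cytokine Il18 at 1.42 ± 0.29. Of 9 genes for receptors and signalling of S100A8 and S100A9, all were tested and Cd33 was higher at 1.34 ± 0.29. Casp1 and Cd14, a protease and a co-receptor of that pathway, differed by 0.88 ± 0.45 and 0.82 ± 0.60. The receptor Tlr4 itself read 0.62, 0.80, 0.73 and 0.94, with groups that overlapped.

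All 7 NADPH oxidase genes were tested, with a median difference of 0.84 and no gene that met the 2-fold rule. Cybb and Ncf1, subunits of the phagocyte oxidase, differed by 1.19 ± 0.79 and 0.86 ± 0.57. Cybb read -2.49, -0.32, -0.64 and 0.22, lowest on W2 and with W3 between the arrays labelled knockout. Leukocyte rolling and adhesion genes gave 9 tested of 10, none past the rule. The integrins Itga4 and Itgb2 differed by 1.02 ± 0.70 and 1.0 ± 1.07 and Vcam1 by 0.73 ± 0.41. Itga4 read -1.55, 0.46, 0.57 and 0.4 and Itgb2 -1.79, 1.37, 0.43 and 1.15 on W2, W3, K4 and K5. Both were lowest on W2, with groups that overlapped.

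Granulopoiesis factors and chemoattractants showed single genes rather than a shift. In the first list 10 of 12 were tested, with a median of 0.11; Gfi1, a repressor needed for neutrophil development, read 1.01 on W2 and -6.17, -4.38 and -4.67 on the others, of which W3 and K5 were not well above background. Lcp1, a leukocyte actin bundler, differed by 1.03 ± 0.75 and Cebpe, a factor of late granulopoiesis not well above background on W2, by 0.93 ± 0.56. Lcp1 read 0.21, 2.39, 2.36 and 2.3 on W2, W3, K4 and K5, lowest on W2 and with groups that overlapped. In the second list 6 of 14 were tested, and C3ar1, the receptor of complement C3a, was higher by 1.03 ± 0.65. C3ar1 read -2.98, -1.12, -1.11 and -0.93 on W2, W3, K4 and K5, and K4 minus W3 was only 0.01. Ppbp differed by -0.80 ± 0.80 and C5ar1 by 0.72 ± 0.51.

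**Figure D5:**
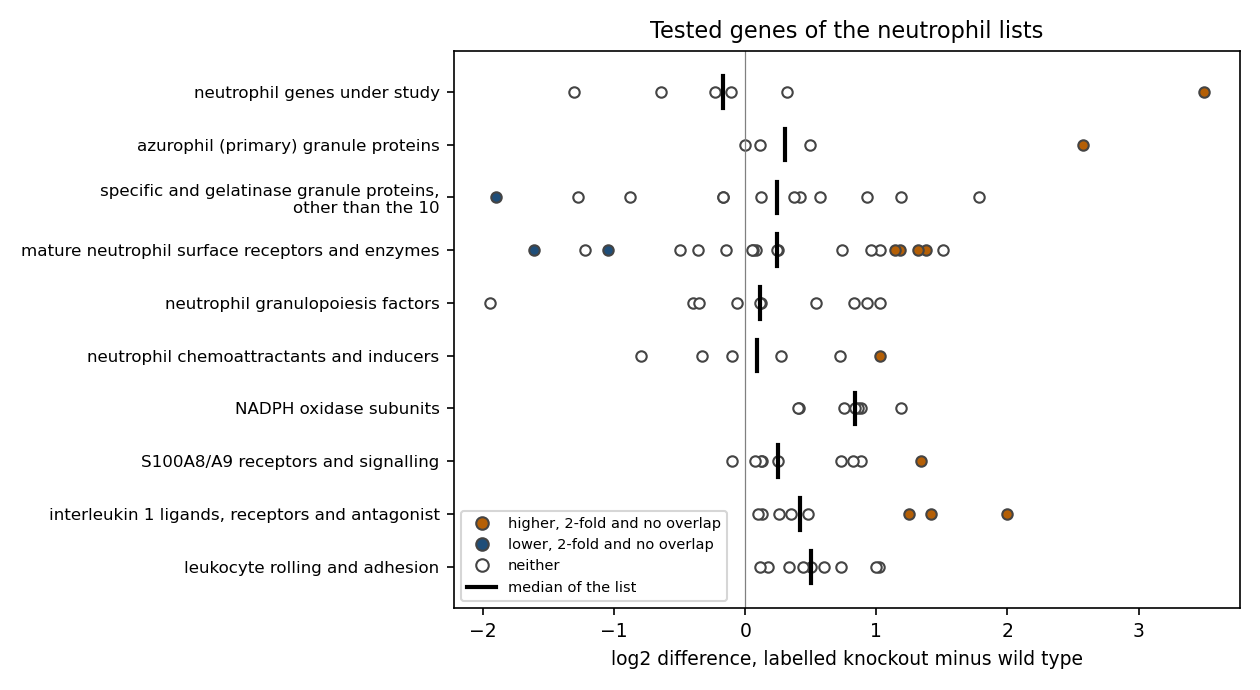
Log2 differences, labelled knockout minus wild type (x axis), of the tested genes of the neutrophil set and 9 related lists (y axis), 1 point a gene, with the median of each list as a bar. Filled points differ at least 2-fold with groups that do not overlap: 10 related genes and Ly6g are higher, and 3 related genes are lower. Of these, Ctsg and Chil3 were not well above background in the group where each was low.

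Gene families of the members were read from the same fit. Of 16 S100 genes 12 were tested and none met the 2-fold rule; besides S100a8 and S100a9, S100a7a, not well above background on W2, differed by 0.98 ± 0.43, and the median was -0.11. S100b, a glial and fat cell gene, also stood 2-fold highest on W3, at 0.78, 3.52, 1.95 and 1.91. In the Ly6 and uPAR family 11 of 12 genes were tested; with Ly6g, Ly6e and Ly6f were higher by 1.47 ± 0.32 and 1.07 ± 0.42, and Ly6h, not well above background on W2 and K5, was lower by 1.58 ± 0.85 on the log2 scale. Ly6e read 3.28, 3.78, 4.89 and 5.11 on W2, W3, K4 and K5.

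Of the resistin family, Retnla, a gene of alternatively activated macrophages and fat, was higher by 2.90 ± 0.45, at 1.84, 0.90, 4.59 and 3.94, with an adjusted p of 0.258 in limma. Retn, the adipocyte member, differed by -3.01 ± 2.61 and was low on K5 alone, at -3.60. Neither followed Retnlg, which peaked on W3. Among cathelicidin, cystatin and stefin genes 4 were tested; Stfa3, a neutrophil stefin, read -4.83, -0.19, -7.22 and -1.88, with W2 and K4 not well above background, and differed by -2.04 ± 2.27, and Cst3 by -0.29 ± 0.35. The transferrin family gave Trf alone, at -0.36 ± 0.57.

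The promoters of S100a8, S100a9 and Ly6g are shown because the first pair peaked on the same array and Ly6g on others. RefSeq holds promoters for all 10 members on GRCm38.p6, each of 300 bases from 250 before the start to 50 after it. Capitals mark matches on either strand to 3 motifs. TTNCNNAA is the motif searched for C/EBP, a family of factors that drive granulocyte genes. For PU.1, a factor of all myeloid cells, the letters searched were GAGGAA. The letters of the TATA box were searched for as TATAAA. In S100a8 a PU.1 match and a TATAAA match adjoin. S100a8 lies at chr3:90668821-90669120 on the plus strand, S100a9 at chr3:90695672-90695971 on the minus strand and the first of 2 Ly6g entries at chr15:75155011-75155310 on the plus strand, each written 5′ to 3′:
S100a8: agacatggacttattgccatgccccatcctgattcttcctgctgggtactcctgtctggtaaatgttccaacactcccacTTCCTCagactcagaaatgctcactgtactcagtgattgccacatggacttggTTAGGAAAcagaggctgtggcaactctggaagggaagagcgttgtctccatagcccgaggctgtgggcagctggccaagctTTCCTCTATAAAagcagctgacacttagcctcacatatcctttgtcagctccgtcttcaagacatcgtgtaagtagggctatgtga
S100a9: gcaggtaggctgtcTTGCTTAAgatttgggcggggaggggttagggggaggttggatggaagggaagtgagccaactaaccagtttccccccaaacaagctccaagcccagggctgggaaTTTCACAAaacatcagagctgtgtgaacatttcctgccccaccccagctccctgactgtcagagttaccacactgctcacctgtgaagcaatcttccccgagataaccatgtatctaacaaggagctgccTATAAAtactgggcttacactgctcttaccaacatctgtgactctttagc
Ly6g: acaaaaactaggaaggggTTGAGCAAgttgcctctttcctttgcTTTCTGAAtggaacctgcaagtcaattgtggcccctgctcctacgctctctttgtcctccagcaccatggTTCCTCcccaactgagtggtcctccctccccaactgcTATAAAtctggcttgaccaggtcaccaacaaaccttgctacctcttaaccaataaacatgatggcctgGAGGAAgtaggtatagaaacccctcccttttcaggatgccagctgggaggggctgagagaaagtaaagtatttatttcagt

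A C/EBP match was found in the promoters of 7 of the 10 members, S100a8, S100a9, Retnlg, Ly6g, Ngp, Ltf and Cd177, and in 40.7% of the 32851 promoters in the table. PU.1 was matched in 5, S100a8, Csf3r, Ly6g, Ltf and Cd177, beside 28.3% of all promoters. TATAAA was matched in 4, S100a8, S100a9, Ly6g and Cd177, beside 13.6%. S100a9 has no PU.1 match in this window. In S100a8 the TATAAA match begins at -30 relative to the annotated start. In S100a9 it begins at 0, on the annotated start itself, and in the first Ly6g entry at -99.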

How the data were processed

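RNA of 4 aorta samples was labelled with Cy3 and hybridised to 1 slide. Agilent Feature Extraction 12.0.3.1 made the processed intensity, per the file headers, by background subtraction and detrending, with surrogates for dim spots and no scaling across arrays; the submitters' processing notes list version 10.7 and limma. The mean spot and background signals deposited are raw intensity values, the other columns used are flags per the file headers, and the value table deposited by the authors is in log2, with a normalisation not given in the sources used here.

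Levels are log2 of the processed signal minus the 75th percentile of all non-control probes on that array. Outlier spots were dropped, repeated spots averaged, and no spot was saturated. A probe had to be above background on at least 2 arrays, and 1 probe a gene, the brightest, was used, which left 22497 genes. The test was lmFit with eBayes (limma 3.58.1, R 4.3.3), two-sided, adjusted by Benjamini-Hochberg over all genes. It was also run on simulated data with noise set well below the spread between these replicates. That run checks the code and does not show the power of this fit. Precision is limited by the number of arrays. Probe positions are on mm9, and promoters, from RefSeq, on GRCm38.p6.

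All 10 members were named, with up to 3 genes of each related or family list by size of difference; genes named for their peak on W3, marker genes and genes of shared probes were added after their values were seen. A gene that this rule would name is not reported here. The members and lists were chosen with earlier results of these data known. The alternatives were other normalisations, background corrections, filters and fits, the deposited values, signal level as a block, and each array left out.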

Additional observations from a re-analysis of the deposited data

How the results depend on the processing

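No paired analysis was possible because the labels' replicate numbers differ between the 2 groups; signal level as a block, which sets W2 beside K5 and W3 beside K4, gave 0 members and 0 genes past the threshold. No member passed the threshold in any alternative that kept all 4 arrays, and the differences of the 6 tested members kept their direction there. Leaving out 1 array gave 0 to 2 members past the threshold, 1 to 3 members with a 2-fold difference and no overlap, and a members' median of -0.23 to 0.49. By array left out, the differences ran from -2.69 to 1.41 for S100a8, -3.55 to 0.92 for S100a9, -1.09 to 0.63 for Il1r2, -0.49 to 0.27 for Csf3r and 1.94 to 5.05 for Ly6g. Without W3, the differences of S100a8, S100a9 and Il1r2 turned to 1.41, 0.92 and 0.02; without K5, that of Il1r2 turned to 0.63; and Csf3r turned to 0.16 without W2 and 0.27 without K4. With no filter on dim probes 2 members met the 2-fold rule, Ly6g and Retnlg, the latter lower and above background on 1 array, and with the filter on all 4 arrays 0 did, since Ly6g and S100a8 were then not tested. Over all genes, the threshold was passed by 8 with quantile normalisation, cyclic loess, no filter or the deposited values, 7 with median scaling, 22 with normexp, 5 with an intensity trend and 2 with array weights, and by 0 to 371 with 1 array left out. The 2-fold rule was met by 409 genes with normexp, 2314 with no filter and 911 with the filter on all 4 arrays, beside 1439, and by 2068 to 2885 with 1 array left out. Signal near background limits Retnlg, Ngp, Ltf and Cd177.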
